A study of Mus musculus with 4 samples.

Results

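The genes described here encode the chaperones, disulfide enzymes, stress sensors and degradation factors of the endoplasmic reticulum (ER), the compartment in which secreted and membrane proteins are folded. They form a list of 40 genes, matched by name (GeneName on the array, in an old or current symbol) with no threshold on their values. All 40 had a probe, and 38 were measured, among 24658 genes and transcripts tested of 49739 with a probe. RNA came from C3H10T1/2, a mouse embryo fibroblast line, and was hybridised to 4 one-colour Agilent arrays. Cells of both groups had been transformed chemically with 3MC (2.5 µg/ml for 2 days, the MCA of the series title), then kept in medium for 4 days, and then given TPA (100 ng/ml for 2 weeks), with 4 weeks in plain medium afterwards. The untreated group (2 arrays) received nothing more, and the DEM group (2 arrays) was exposed to 0.25 mM diethyl maleate, an electrophile that reacts with glutathione. How long DEM was applied, and whether paired arrays stem from independent flasks, is not stated in the labels, so p-values measure the spread between these arrays, which may be technical.

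Proteins that fail to fold in the ER are held by chaperones of which BiP, the product of Hspa5, is the central one. The sensors ATF6, IRE1 (Ern1) and PERK (Eif2ak3) are activated when unfolded proteins accumulate, and they raise transcription of chaperone genes through ATF6, XBP1 and ATF4 in what is called the unfolded protein response. Proteins that cannot be rescued are recognised by lectins such as EDEM and OS9, passed through a membrane complex built on the ubiquitin ligase HRD1 (Syvn1), pulled into the cytosol by the ATPase VCP with its partners UFD1 and NPLOC4, and destroyed by the proteasome.

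Many genes of this response carry a short promoter sequence called the ER stress element (ERSE), and it is shown first because members with and without a change in RNA both hold it. RefSeq promoter windows (GRCm38.p6, 250 bases before to 50 after the start) were found for 35 of the 40 members. They were searched on both strands for ERSE, which is CCAAT and CCACG with 9 bases of any kind between them, and 10 of the 35 held it, against 37 of 27025 genes with a window (0.137%). The genes were listed for their place in ER protein quality control, so this share describes the list and is not independent evidence of anything in these cells. In the stretches below the motif is in capitals, and on the opposite strand it reads from CGTGG to ATTGG. Hspa5, Creld2, Calr, Pdia6 and Syvn1 did not pass the test described below, whereas Hsp90b1, which holds 2 copies, and Ero1lb rose. Canx, Dnajc3 and Derl3 also hold ERSE and are not printed. Of these, Canx and Dnajc3 did not pass and Derl3 was not measured. Herpud1 holds the shorter ERSE-II (ATTGG, 1 base of any kind and CCACG, in 12 of 27025 genes), and Vcp the core of the XBP1 and ATF6 site UPRE (TGACGTGG, in 193 genes, or 0.714%). Dnajb11, which was not measured, also holds ERSE-II, after its start, and is not printed.
Hspa5, chr2:34772015-34772053, + strand: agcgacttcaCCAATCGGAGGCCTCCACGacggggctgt
Creld2, chr15:88819510-88819548, + strand: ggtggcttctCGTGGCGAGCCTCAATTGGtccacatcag
Calr, chr8:84847065-84847103, - strand: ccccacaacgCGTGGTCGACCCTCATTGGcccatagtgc
Pdia6, chr12:17266481-17266519, + strand: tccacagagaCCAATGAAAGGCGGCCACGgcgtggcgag
Syvn1, chr19:6046522-6046560, + strand: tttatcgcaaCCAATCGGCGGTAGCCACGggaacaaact
Hsp90b1, chr10:86705523-86705666, - strand: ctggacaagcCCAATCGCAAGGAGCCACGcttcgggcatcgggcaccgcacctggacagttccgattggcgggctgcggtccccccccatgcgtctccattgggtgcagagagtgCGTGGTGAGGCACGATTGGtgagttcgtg
Ero1lb, chr13:12565672-12565710, + strand: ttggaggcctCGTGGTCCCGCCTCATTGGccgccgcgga
Herpud1, chr8:94386367-94386397, + strand: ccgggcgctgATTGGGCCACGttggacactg
Vcp, chr4:43000604-43000631, - strand: tgcggccaatTGACGTGGcgttactagg

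DEM-exposed cells had more RNA of a part of this machinery, and BiP was not in that part. Of 38 measured members, 11 rose, 1 fell and 26 did not pass at an adjusted p under 0.05 (limma, Benjamini-Hochberg over all genes tested). Those that rose were the oxidases Ero1l and Ero1lb, the chaperones Hsp90b1 and Hyou1, the co-chaperone Dnajb9, the degradation genes Edem1 and Derl2, the 3 extraction genes Vcp, Ufd1l and Nploc4, and the sensor Ern1. The member that fell was Xbp1. Across all genes tested, 15.5% were higher and 11.8% lower, so the share of members that were higher, 28.9%, was above that of all genes and the share that were lower, 2.63%, was below it. The genes tested were drawn from all probes, those of noncoding transcripts included, and were not matched to the members by signal. The median log2 change over the members was 0.18, against 0.16 over all genes. The order turned after quantile normalization (-0.039 against 0.07) and with normexp (0.13 against 0.23). It also turned with no filter on dim probes (0.208 against 0.469) and without DEM replicate 1 (0.134 against 0.178). With only probes well above background on all 4 arrays it turned as well (0.179 against 0.199). In the other settings the member median stayed the higher one.

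Each level is the log2 of a processed spot signal after its array's 75th percentile was subtracted, and stands on the brightest probe of the gene. Levels can be compared between arrays for 1 gene but not between genes, since probes differ in brightness. Both DEM arrays lay above both untreated arrays for 20 members and below them for 5 (all genes: 42.4% above, 26.0% below, 68.5% either way), and the groups overlapped for 13. None of the 12 members that passed changed direction in any of the 13 alternative settings, and all 12 passed after normexp background correction and after quantile normalization. Scaled to spike-in RNA, 0 of 38 members passed in limma (smallest adjusted p among the 12, 0.127; at an unadjusted p under 0.05, 1 was higher and 0 lower), and 354 genes were higher and 859 lower. The changes themselves kept their direction there, and the smallest of the 12 was 0.56 on the log2 scale. On that scale the 2 arrays of a group stood apart, since the 75th percentile relative to the spike-ins was -2.76 and -3.41 without DEM and -2.78 and -3.70 with it. Replicate 2 was the lower array in both groups, and the spike-in fit had no term for the replicate number. Without untreated replicate 1, 3 members were higher and 0 lower, and without untreated replicate 2, 2 and 0 (all genes: 836 and 872, and 644 and 802). There the lone array is assumed to vary like the pair in the other group.

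**Figure D1:**
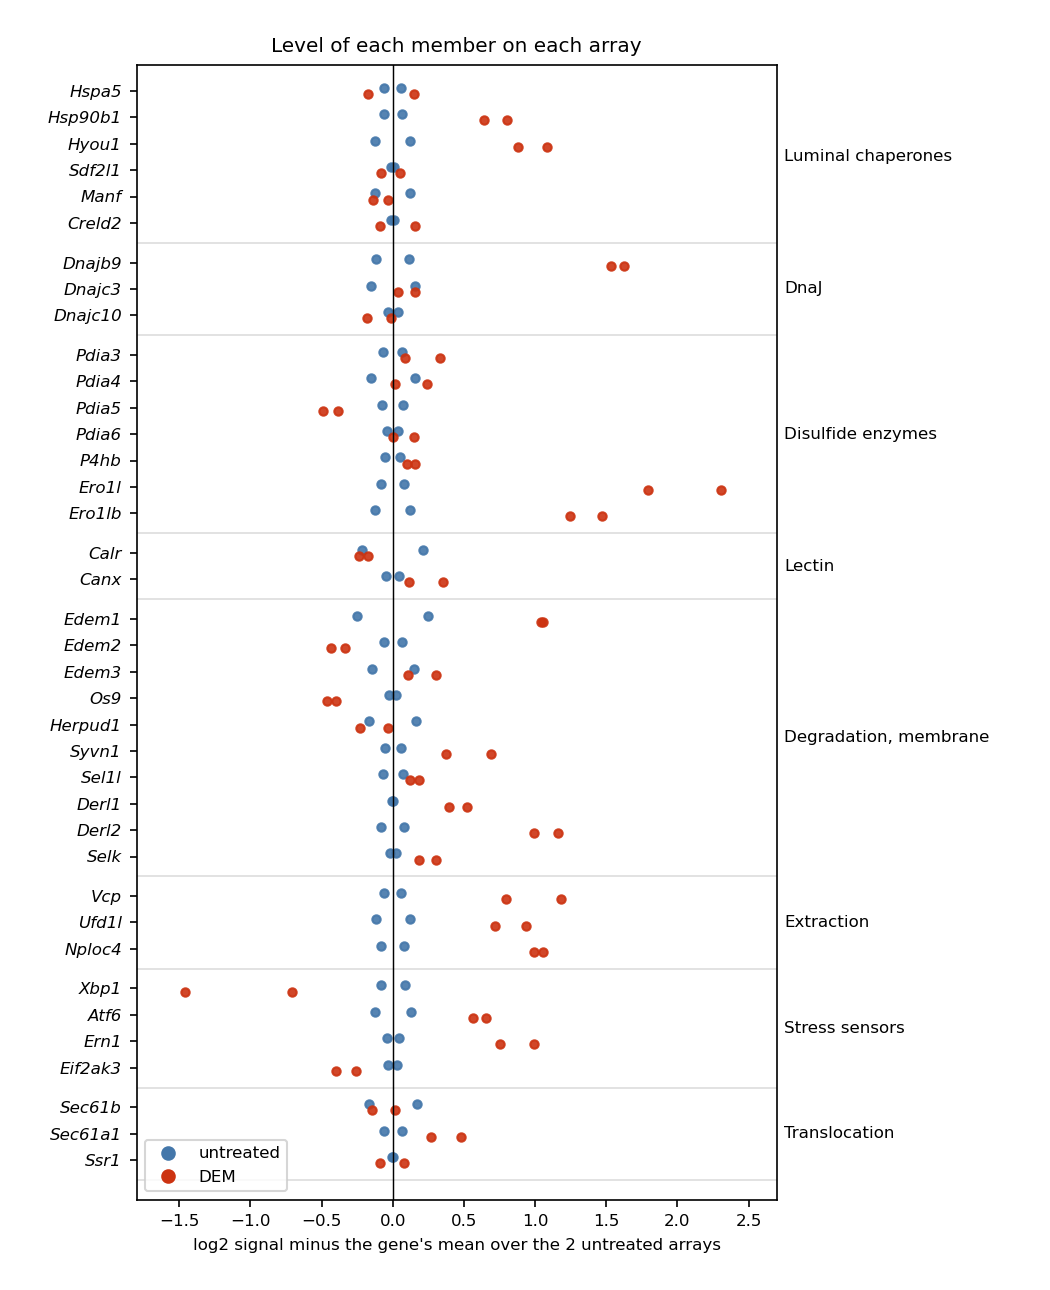
Log2 signal of each of the 38 measured members on each array, minus the gene's mean over the 2 untreated arrays (x axis), with genes in rows by role and 1 point per array (untreated in blue, DEM in red). The DEM points of Ero1l lie farthest to the right and those of Xbp1 farthest to the left, while those of Hspa5 lie on both sides of the untreated points.

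Among the ATPase chaperones of the ER lumen and their partners, 2 of 6 rose (33.3%, against 15.5% of all genes). Shares of so few genes, here and in the roles below, only describe. Hspa5 stood at 7.17 and 7.29 on the untreated arrays and at 7.38 and 7.06 on the DEM arrays. The groups overlapped, and the log2 change of -0.01 ± 0.16 (SE, n = 2 per group) did not pass (adjusted p = 0.964). Its 95% interval on the linear scale ran from 0.755-fold to 1.30-fold, so a doubling lies outside it. Hsp90b1, which encodes GRP94, the HSP90 of the ER, was at 6.83 and 6.71 untreated and at 7.41 and 7.57 with DEM. It rose 1.65-fold (log2 0.72 ± 0.14, adjusted p = 0.0164), and both DEM arrays were above both untreated ones. Hyou1, an exchange factor and chaperone that works with BiP, was at 2.84 and 2.60 untreated and at 3.81 and 3.60 with DEM, a 1.98-fold rise (log2 0.99 ± 0.18, adjusted p = 0.0137). Both calls were lost without untreated replicate 1 (adjusted p = 0.0972 for Hsp90b1 and 0.0645 for Hyou1) and without untreated replicate 2 (0.144 and 0.112), and that of Hsp90b1 also without a variance trend (0.0549).

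Smaller stress-induced proteins of the same group had overlapping arrays. Creld2, a disulfide-handling protein induced with BiP, was at 5.10 and 5.12 untreated and at 5.02 and 5.27 with DEM. Manf, a secreted ER stress factor, was at 4.21 and 3.96 against 4.05 and 3.95. Sdf2l1, a partner of the BiP co-chaperones, was at 1.48 and 1.50 against 1.40 and 1.54. None of the 3 passed (adjusted p between 0.739 and 0.950), and their 95% intervals lay between 0.706-fold and 1.34-fold.

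The DnaJ co-chaperones, which deliver substrates to BiP and trigger its ATPase, had 1 of 3 measured genes higher (15.5% of all genes were). Differences between the co-chaperones were not tested. Dnajb9 (ERdj4), which also restrains the sensor IRE1, was at -0.06 and -0.29 on the untreated arrays and at 1.45 and 1.36 on the DEM arrays. The groups were far apart relative to their own spread, and the 2.99-fold rise (log2 1.58 ± 0.19, adjusted p = 0.00412) also passed without untreated replicate 1 (0.0353) and without untreated replicate 2 (0.0495). Dnajc3, known as p58IPK, an inhibitor of PERK, was at 2.07 and 2.37 untreated and at 2.38 and 2.26 with DEM, and Dnajc10, a co-chaperone with reductase domains, at 3.58 and 3.51 against 3.37 and 3.53. Neither passed (adjusted p = 0.731 and 0.689). Dnajb11 had 1 probe, well above background on 1 array (at -3.71 on DEM replicate 1), and was not measured.

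Of the 7 enzymes that make and rearrange disulfide bonds, both oxidases rose and none of the 5 isomerases passed (28.6% higher, against 15.5% of all genes). Ero1l encodes the oxidase that reoxidises protein disulfide isomerase, passing electrons to oxygen. The untreated arrays read 1.91 and 1.74 and the DEM arrays 4.14 and 3.62, a 4.14-fold rise (log2 2.05 ± 0.22, adjusted p = 0.00317) and the largest among the members. That call held in every alternative other than the spike-in scaling, with an adjusted p of 0.0275 without untreated replicate 1 and 0.0346 without untreated replicate 2. Ero1lb, the second oxidase of this family, was at -1.25 and -1.50 untreated and at -0.13 and 0.09 with DEM. It rose 2.56-fold (log2 1.36 ± 0.22, adjusted p = 0.00886), and did not pass without untreated replicate 1 (0.0594) or untreated replicate 2 (0.0881).

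P4hb, which encodes protein disulfide isomerase itself, was at 6.40 and 6.50 untreated and at 6.61 and 6.55 with DEM. Pdia3 (ERp57), which works with calreticulin and calnexin, was at -1.43 and -1.56 against -1.17 and -1.41. In both genes the DEM arrays were slightly higher without overlap, and neither passed (adjusted p = 0.525 and 0.520). Pdia4 changed by 0.13 ± 0.19 and Pdia6 by 0.08 ± 0.15, with overlapping arrays. Pdia5 had lower DEM values (1.63 and 1.73 against 2.19 and 2.04) and did not pass (log2 -0.44 ± 0.18, adjusted p = 0.118).

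The lectin chaperones calreticulin and calnexin, which hold glycoproteins while they fold, did not pass. Calr was at 5.23 and 5.66 untreated and at 5.27 and 5.21 with DEM (adjusted p = 0.457). Canx was at 5.08 and 4.98 against 5.39 and 5.15 (adjusted p = 0.320), with both DEM arrays higher.

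Degradation genes held 5 of the 11 members that rose, out of 13 measured (38.5%, against 15.5% of all genes). Those that were lower numbered 0, against 11.8% of all genes. Their median log2 change was 0.46 (limma, at an unadjusted p under 0.05: 7 higher and 1 lower). The extraction genes gave 3 of 3 and the membrane steps 2 of 10, so the higher share rests largely on the extraction genes. The 3 genes that encode the extraction complex rose together. Vcp, the ATPase also known as p97, was at 5.32 and 5.19 on the untreated arrays and at 6.44 and 6.05 on the DEM arrays, or 1.99-fold higher (log2 0.99 ± 0.18, adjusted p = 0.0132). Nploc4, an adaptor that gives it ubiquitinated substrates, was at 2.87 and 3.03 against 4.01 and 3.95, or 2.04-fold higher (log2 1.03 ± 0.16, adjusted p = 0.00882). Ufd1l, the other adaptor, was at 1.54 and 1.78 against 2.38 and 2.60, or 1.78-fold higher (log2 0.83 ± 0.19, adjusted p = 0.0258). Both DEM arrays lay above both untreated arrays for all 3, as they did for 42.4% of all genes. VCP and its adaptors also serve in the cytosol and nucleus. Without untreated replicate 1 the adjusted p was 0.0757 for Vcp, 0.0795 for Nploc4 and 0.171 for Ufd1l, without untreated replicate 2 it was 0.101, 0.0635 and 0.104, and with the mean of all kept probes Ufd1l did not pass (0.0617).

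At the membrane, 2 of 10 measured genes rose (20.0%, against 15.5% of all genes). Edem1, a mannosidase-like lectin that marks misfolded glycoproteins, was at 2.74 and 2.24 untreated and at 3.53 and 3.55 with DEM, a 2.07-fold rise (log2 1.05 ± 0.22, adjusted p = 0.0185). Edem2 was at 0.30 and 0.42 against -0.07 and 0.02 and Edem3 at 0.78 and 0.49 against 0.74 and 0.94, and neither passed (adjusted p = 0.181 and 0.489). Derl2, a derlin of the retrotranslocation channel, was at 3.90 and 4.05 against 4.97 and 5.13, a 2.11-fold rise (log2 1.08 ± 0.16, adjusted p = 0.00751). Its relative Derl1 was at 3.99 and 3.98 against 4.50 and 4.38, higher on both DEM arrays, and did not pass (log2 0.46 ± 0.15, adjusted p = 0.0758). Whether the relatives differ from each other was not tested. Edem1 did not pass without untreated replicate 2 (0.121), and Derl2 not without untreated replicate 1 (0.0701) or untreated replicate 2 (0.0571).

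Syvn1, which encodes the ubiquitin ligase HRD1, was at 5.26 and 5.37 untreated and at 5.69 and 6.01 with DEM. Both DEM arrays were higher, and the log2 change was 0.53 ± 0.17 (adjusted p = 0.0659, not passed). It passed with the replicate number as a block (0.0316) and without DEM replicate 1 (0.0225). Os9, a lectin that hands substrates to that complex, had lower DEM values (4.23 and 4.16 against 4.60 and 4.65, adjusted p = 0.0833). It passed as lower after quantile normalization (0.0219), with no filter on dim probes (0.0441) and with the mean of all kept probes (0.0399). Sel1l, the scaffold of the complex, changed by 0.15 ± 0.18, Herpud1, an adaptor and a well-known ER stress target, by -0.13 ± 0.19, and Selk, an ER selenoprotein, by 0.24 ± 0.14, and none of these passed. Derl3 had 1 probe, not well above background on any array, and was not measured.

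Among the sensors and their factor Xbp1, 1 of 4 genes rose (Ern1) and 1 fell (Xbp1), where 15.5% of all genes were higher and 11.8% lower. Xbp1, whose RNA is spliced by IRE1 to give the active factor, was at 1.57 and 1.74 on the untreated arrays and at 0.95 and 0.20 on the DEM arrays. Both DEM arrays were lower and they differed from each other more than the untreated pair did, and the log2 change of -1.08 ± 0.28 passed (adjusted p = 0.0369). The call was lost without untreated replicate 1 (0.135), untreated replicate 2 (0.191) and a variance trend (0.0611). The probe reads the RNA of the gene, and spliced and unspliced forms were not told apart here. Ern1, which encodes IRE1 itself, was at -1.95 and -1.87 against -1.16 and -0.92, a 1.83-fold rise (log2 0.87 ± 0.22, adjusted p = 0.0340) that was lost without untreated replicate 1 (0.206) and untreated replicate 2 (0.185). Atf6 was at 1.67 and 1.42 against 2.21 and 2.11 and did not pass (log2 0.61 ± 0.19, adjusted p = 0.0570), but did with no filter on dim probes (0.0283), with the mean of all kept probes (0.0451) and with the replicate block (0.0499). Eif2ak3, which encodes PERK, was at 0.23 and 0.29 against -0.14 and 0.00 and did not pass (adjusted p = 0.245).

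The 3 genes of the translocation channel, through which new chains enter the ER, did not pass. Sec61a1, the channel itself, was at 5.67 and 5.80 untreated and at 6.01 and 6.22 with DEM, higher on both (adjusted p = 0.122). Sec61b, a small subunit, was at 6.42 and 6.09 against 6.11 and 6.27, and Ssr1, of the translocon-associated complex, at 4.15 and 4.15 against 4.06 and 4.23, and in both the groups overlapped.

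Promoter motifs and RNA changes were set side by side without a test. Of the 10 members with ERSE, 9 were measured, and 2 rose, 0 fell and 7 did not pass (median log2 change 0.10). Of 24 measured members with a window and no ERSE, 8 rose and 1 fell, with a median of 0.14. The 10 other tested genes with ERSE in their window had 0 higher and 3 lower. Among them Esp15, Esp16, Olfr59 and Ptgdr2 were dim (group means from -4.32 to -2.99) and did not pass. The shares higher in these 3 sets were 22.2%, 33.3% and 0%, and those lower 0%, 4.17% and 30.0%. Across all genes tested they were 15.5% and 11.8%, and sets this small only describe. UPRE was found in 1 of 35 members (Vcp), where it overlaps a match to the core of the NRF2 site (TGACNNNGC), and it ends in the reverse complement of the ERSE's CCACG. The NRF2 core was in 8 of the 35 members, against 14.0% of all genes with a window. A heat shock element was in 1 (Nploc4), and a composite ATF4 site (TGATGNAAT) in 0. These are matches of letters within the windows and say nothing about binding.

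**Figure D2:**
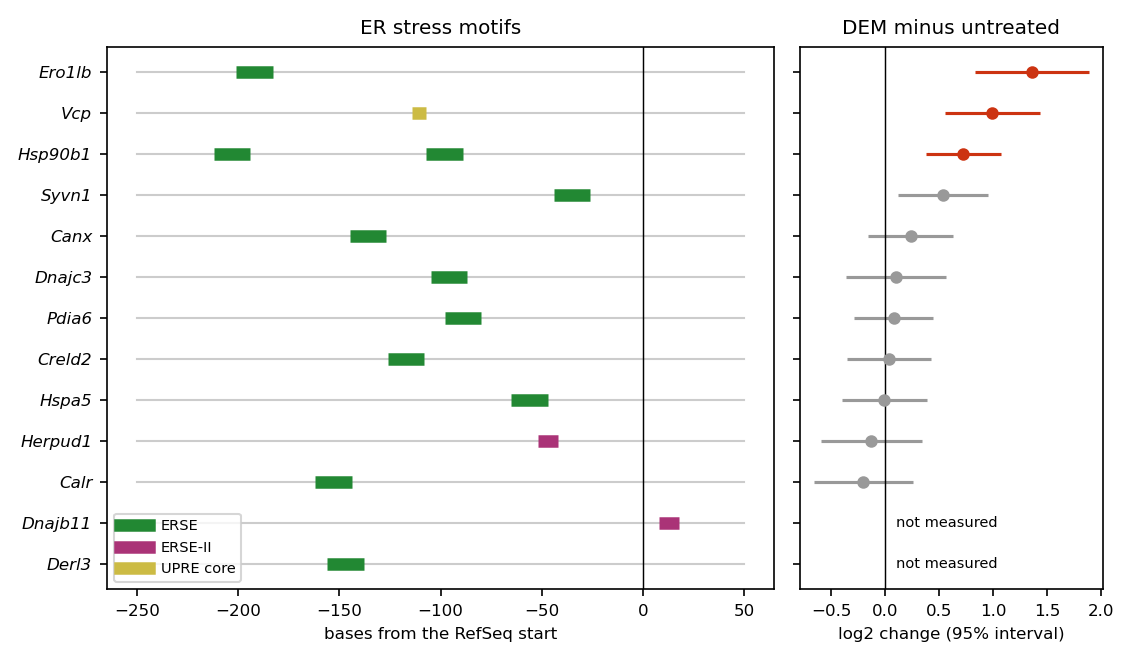
Left, position of ERSE, ERSE-II and UPRE core matches in the promoter windows of the 13 members that hold one, in bases from the RefSeq start. Right, log2 change (DEM minus untreated) with its 95% interval, coloured by call (red higher, grey not passed): the ERSE genes range from Ero1lb at 1.36 to Calr at -0.20.

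Several probes were kept for 18 members, which gives a check within the array. In 13 of them all probes pointed one way, among them all 7 members that passed and had more than 1 kept probe. The 3 probes of Dnajb9 gave log2 changes of 1.58, 1.43 and 1.93 and the 3 of Edem1 gave 1.05, 1.16 and 1.18. Both Vcp probes were close to each other (0.99 and 1.15), while the second probe of Ero1l gave 1.36 against 2.05 for the brightest. Probes disagreed in direction for Pdia6 (0.08, -0.68 and -0.38), Sec61a1 (0.38, -0.15 and -0.14), Dnajc10, Derl1 and Ssr1, none of which passed. For Canx the 2 dimmer probes gave 0.64 and 0.93, above the 0.23 of the brightest. Hspa5, Hyou1, Nploc4, Xbp1 and Ern1 rest on 1 probe each, and Derl2 on 1 of 2, since the other carried an outlier mark.

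**Figure D3:**
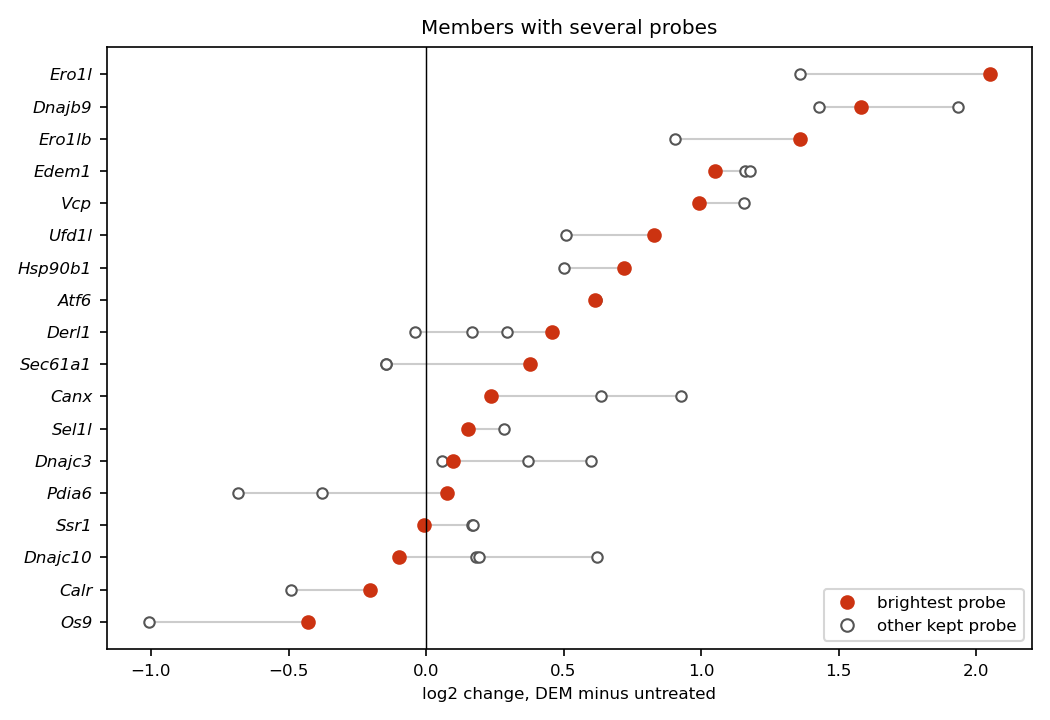
Log2 change (DEM minus untreated) of every kept probe for the 18 members with several kept probes, 1 row per gene; the filled point is the brightest probe and the open points are the others. All probes of the 7 members that passed lie to the right of 0, and those of Pdia6, Sec61a1, Dnajc10, Derl1 and Ssr1 lie on both sides.

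Other genes of the ER pathway, taken whole from 5 lists of 106 genes, were read against the same shares of all genes, 15.5% higher and 11.8% lower. The lists were chosen with earlier results of these data known, so their counts are not independent evidence for the members. Among the 104 with a measured level, 21 rose (20.2%), 4 fell (3.85%) and 79 missed the threshold, with a median log2 change of 0.24. Further degradation factors had 10 of 27 higher and 0 lower, with a median of 0.40 (limma, at an unadjusted p under 0.05: 11 and 1). Ubxn4, an ER membrane protein that recruits VCP, was at 3.82 and 3.82 untreated and at 5.35 and 5.12 with DEM, a 2.66-fold rise (log2 1.41 ± 0.16, adjusted p = 0.00364). The ubiquitin-conjugating enzymes of ER degradation Ube2g2 and Ube2j1 rose 1.99-fold and 1.95-fold (adjusted p = 0.00776 and 0.00925), and Fam8a1, a component of the HRD1 complex, rose 2.19-fold (0.0139). Ubxn4 passed without untreated replicate 1 (0.0384) and untreated replicate 2 (0.0406), the other 3 in neither, and Ube2g2 and Ube2j1 did not pass with the mean of all kept probes (0.103 and 0.144).

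Stress output genes gave 3 higher and 2 lower of 17 (17.6% and 11.8%), close to the shares of all genes. Chac1, a glutathione-degrading enzyme that ATF4 and CHOP induce, was at 4.04 and 4.85 untreated and at 6.53 and 6.96 with DEM, a 4.91-fold rise (log2 2.30 ± 0.30, adjusted p = 0.00486) that also passed with spike-in scaling (0.0346). Trib3, another target of that branch, rose 4.05-fold (log2 2.02 ± 0.35, adjusted p = 0.0116), and Ddit3, which encodes CHOP, rose by 1.25 ± 0.29 on the log2 scale (adjusted p = 0.0265). The untreated arrays stood apart for both genes. Trib3 was at 2.64 and 3.58 untreated and at 5.43 and 4.83 with DEM, and Ddit3 at 2.60 and 3.41 against 4.39 and 4.12. Atf4 itself changed by 0.19 ± 0.19 and did not pass. Atf3 (0.11 ± 0.26), Ppp1r15a (0.46 ± 0.24) and Sesn2 (0.30 ± 0.22), stress output genes of the same list, did not pass either. Creb3l1, an ER-bound factor for secretory genes of matrix-producing cells, fell by 1.32 on the log2 scale (adjusted p = 0.0187), and Mbtps1, the protease that first cuts ATF6, fell by 0.82 (adjusted p = 0.0200). Without untreated replicate 1 neither Trib3 (0.0517) nor Ddit3 (0.111) passed, and Creb3l1 (0.0724) and Mbtps1 (0.146) did not either. Without untreated replicate 2 the adjusted p was 0.0233 for Trib3, 0.0342 for Ddit3, 0.156 for Creb3l1 and 0.0702 for Mbtps1.

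The remaining lists hold glycosylation, translocation and other folding genes. N-glycosylation and glycan trimming had 1 of 17 higher, Rpn1, a subunit of oligosaccharyltransferase (1.60-fold, adjusted p = 0.0363), and 0 lower, with a median of 0.02 (limma, at an unadjusted p under 0.05: 3 and 1). Translocation and signal peptidase genes had 3 of 16 higher, Srprb, Sec11a and Spcs3, and 0 lower, with a median of -0.06 (3 and 1). Other folding factors, a list not confined to proteins of the ER lumen, had 4 of 27 higher and 2 lower. Those higher included the oxidase Qsox1 (1.95-fold, adjusted p = 0.0215) and the co-chaperone Dnajb14 (1.69-fold, adjusted p = 0.0283). The 2 lower were the isomerase genes Fkbp14 (log2 -0.88 ± 0.19) and Txndc5 (-0.72 ± 0.19). At an unadjusted p under 0.05 these folding factors had 10 higher and 5 lower. None of the 8 named genes of these 3 lists passed without untreated replicate 1 (adjusted p from 0.0897 to 0.184) or untreated replicate 2 (from 0.0820 to 0.266). After quantile normalization Rpn1 (0.144), Sec11a (0.101) and Spcs3 (0.102) did not pass.

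**Figure D4:**
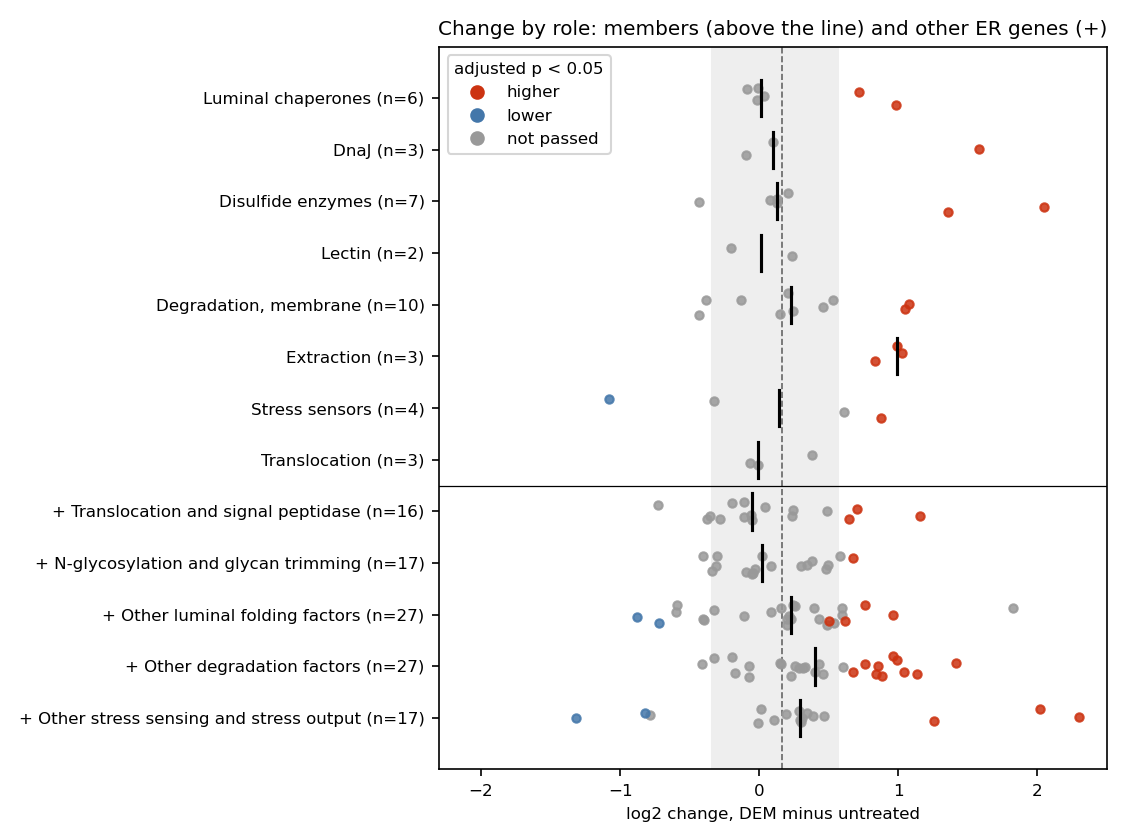
Log2 change (DEM minus untreated, x axis) of each measured member by role (above the line) and of the other ER genes by list (below it), 1 point per gene, coloured by call. Black ticks are list medians, and the dashed line (0.16) and the grey band are the median and the interquartile range of all genes tested; all 3 extraction genes lie to the right of the band.

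**Figure D5:**
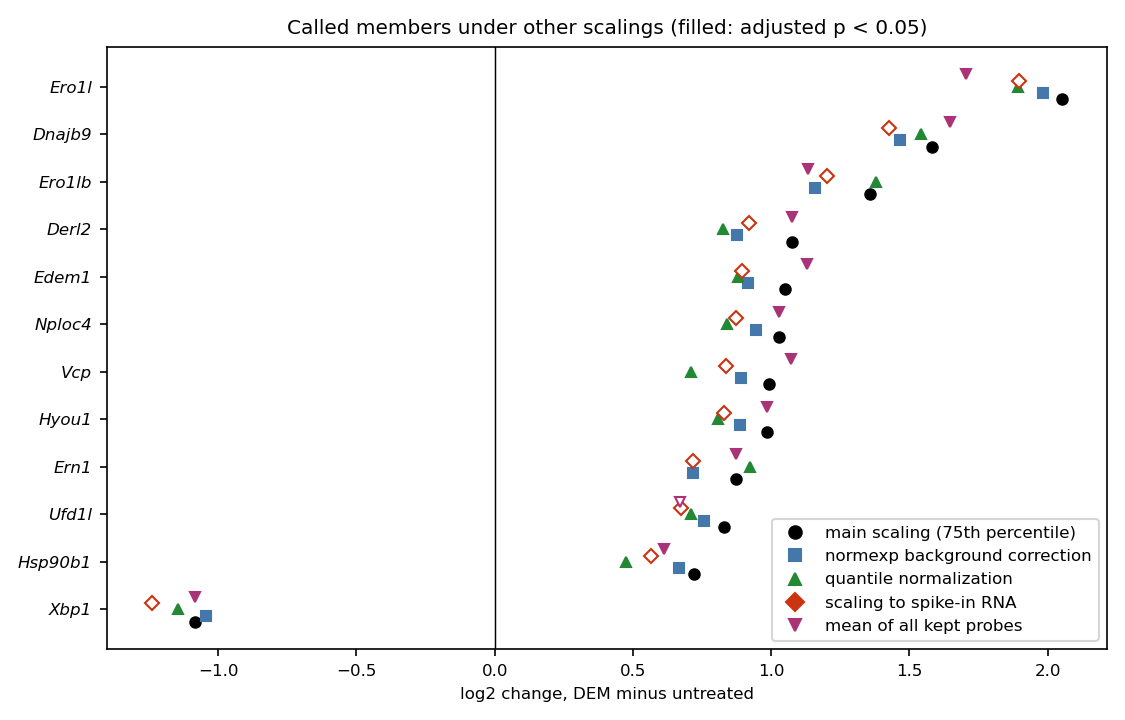
Log2 change (DEM minus untreated) of the 12 members that passed, under the main scaling, 3 other ways of correcting or scaling the arrays and the mean of all kept probes; filled symbols have an adjusted p under 0.05. Every symbol of a gene lies on the same side of 0, and all 12 are open under spike-in scaling.

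The arrays as a whole differed in ways that bear on these values. Untreated arrays were brighter, with 75th percentiles of 701 and 747 against 449.9 and 412 with DEM, and no spot was saturated. Higher genes were 56.8% of those called, against 46.6% after quantile normalization, 70.1% with normexp and 29.2% with spike-in scaling. Members that were higher stayed at 11 with quantile normalization and normexp, and were 0 with spike-in scaling. Of 10 fibroblast markers, all measured, 4 fell (Col1a2, Pdgfra, Pdgfrb and Fap) and 0 rose (limma, the same at an unadjusted p under 0.05). Fap was not well above background with DEM. Of 21 markers of epithelial, endothelial, blood, plasma or gland, and muscle cells with a probe, 15 were not measured, and of the other 6, 0 rose and 3 fell (Tek, Sdc1 and Des). Across all genes tested 15.5% were higher and 11.8% lower, and marker sets this small only describe. Tek, like Fap, was not well above background with DEM, so both entered the test only through the untreated arrays, where they are higher. Tek was dim there too, at -3.95 and -3.90, where the lowest levels well above background were -4.82 and -4.80. A change in the mix of cells and a change in RNA per cell cannot be told apart in these bulk samples, and their part in the results was not tested.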

How the data were processed

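Cy3 arrays (500 ng RNA per sample, per the labels) were read with Agilent Feature Extraction 10.7.3.1. Per the file headers, the deposited spot intensity values had been detrended across the array, with surrogates for low signals. The deposited log2 values of the authors lay within 0.01 of a constant from log2 processed signal for at least 99.98% of probes and served as an alternative. Controls (1319 spots) and outlier-marked spots (130 probes) were left out. Log2 processed signal minus each array's 75th percentile was used. Symbols came from RefSeq GRCm38.p6 (28136 probes by accession, 4982 by symbol, 1406 by synonym). Another 6104 gene probes and 20679 probes of noncoding transcripts kept the name given on the array. Probes well above background on at least 2 arrays were kept (31771), the brightest per gene. Of 72 member probes 1 was left out (Derl2); 1 is named Dnajc3a in the files.

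Groups were compared with limma 3.58.1 (R 4.3.3; lmFit, eBayes with a trend, 2 residual and 4.03 prior degrees of freedom), two-sided, with Benjamini-Hochberg adjustment over 24658 genes. The fit was tested on simulated data. All members were named, and up to 4 genes of smallest p per wider list; other names (such as Ddit3, Atf4 and the markers) were chosen after their values were seen. Members and lists were chosen with earlier results of these data known. All arrays shared 1 slide and 1 scan, so neither could be a block; untreated arrays lay in slide row 1 and DEM arrays in row 2, so row and group cannot be told apart. Figures used matplotlib 3.10.9.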

Additional observations from a re-analysis of the deposited data

How the results depend on the processing

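Members higher with DEM numbered 11 and ranged from 10 to 14 in the settings that kept every array, other than spike-in scaling. They were 0 with spike-in scaling, and between 2 and 12 with each array left out. Members lower numbered 1, against 2 with quantile normalization, no filter on dim probes or the mean of all kept probes, 0 with spike-in scaling or without a variance trend, and 0 to 1 with each array left out. The median log2 change of members (0.18) was -0.039 after quantile normalization and 0.024 with spike-in scaling. Genes higher numbered 3812, against 6465 with normexp, 354 with spike-in scaling, 17297 with no filter and 644 to 4488 with each array left out, and genes lower 2900, against 859 with spike-in scaling and 802 to 3814. Other ER genes higher numbered 21, against 1 with spike-in scaling, 13 without a trend and 2 to 25 with each array left out, and lower 4, against 9 with normexp, 9 with quantile normalization, 0 with spike-in scaling, 7 with no filter and 0 to 6. The median over all genes moved from 0.16 to 0.47 with no filter and to 0.005 with spike-in scaling. With the replicate number as a block 13 members were higher and 1 lower, and 4473 and 3378 genes. The numbers were not shown to pair the arrays gene by gene (deviations of same-numbered arrays correlated at 0.08). That correlation was taken after 75th percentile scaling, which removes a shift of a whole array. Relative to the spike-ins, the 75th percentile was lower on both replicate 2 arrays (-3.41 and -3.70) than on both replicate 1 arrays (-2.76 and -2.78). A replicate block was not run with spike-in scaling. No member that passed changed direction in any setting, and 7 of the 26 others did so after quantile normalization without passing. The cause of these differences was not tested. With 2 arrays per group precision is limited: the smallest change that passed among members was 0.72 on the log2 scale. The slide as a block was not run, since there was 1 slide.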
